A study of Mus musculus with 6 samples.

Results

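The genes described here encode the regulators of the KEAP1-NRF2 system, and they were chosen by name with earlier results of these data known. They are the CNC factor genes Nfe2l2 (NRF2) and Nfe2l1, the ligase genes Keap1 and Cul3, the p62 gene Sqstm1, the repressor genes Bach1 and Bach2, and the small MAF genes Maff, Mafg and Mafk. All 10 were among the 36706 genes of the deposited tables, and all 10 passed the filter on low counts that left 14011 genes for testing. Messenger RNA was sequenced from wild-type mouse dendritic cells grown from bone marrow with 20 ng/mL GM-CSF, in medium that was replaced on days 3 and 5. Interferon gamma (IFN-γ) was given to the cells of all 6 libraries, alone in 3 of them and in the other 3 together with 4-octyl itaconate (4-OI), an ester of the metabolite itaconate that crosses cell membranes. Doses, exposure times and the number of animals are not stated in the labels, which describe neither untreated cells nor cells with 4-OI alone. The sample titles name the cells as macrophages, whereas the cell type label and the protocol name dendritic cells.

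NRF2 is a transcription factor that is made continuously and destroyed continuously. KEAP1 holds it on the CUL3 ubiquitin ligase, and electrophiles that modify cysteines of KEAP1, of which 4-OI is a known example, let newly made NRF2 escape. In the nucleus NRF2 pairs with a small MAF protein and binds antioxidant response elements, where BACH1 paired with the same small MAFs acts as a repressor until heme removes it. The autophagy receptor p62 binds KEAP1 and delivers it to autophagosomes. The NRF2 protein is regulated mostly after translation, and these data measure messenger RNA only.

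The libraries held 19656368 to 29244717 counts, and levels are given as CPM, each gene's share of the library's counts after scaling by TMM factors, as mean ± SD over 3 libraries. On the second principal component IFN-γ replicate 1 lay at 32.0, away from -19.1 and -16.8 for the other IFN-γ libraries. Summed stromal markers were 45.1 CPM in that library and 0.398 to 2.59 CPM in the other 5. Dendritic cell markers Itgax (514 ± 50.01 CPM), Zbtb46 (15.5 ± 0.655 CPM) and Flt3 were detected with IFN-γ. So were the macrophage markers Adgre1 (875 ± 41.7 CPM) and Csf1r (677 ± 34.5 CPM). Listed dendritic cell markers ran from Cd209a, with 3, 1 and 1 counts, to Cd74 at 3009 ± 273 CPM. Listed macrophage markers ran from C1qa at 2.87 ± 1.26 CPM to Cd14 at 905 ± 125 CPM. Siglech of plasmacytoid dendritic cells had no count. With 4-OI, 6 of 10 tested markers of conventional dendritic cells were called lower and 1 was higher. Lower too were 5 of 6 markers of monocytes, 3 of 4 tested of eosinophils and all 6 tested of mast cells and basophils. Of 8 neutrophil markers 5 were lower and 2 higher, and of 9 macrophage markers 3 were higher and 1 lower. Over all tested genes 25.4% were called lower and 22.7% higher. Summed levels went from 5350.4 to 6240 CPM to 4413 to 5212 CPM for the conventional dendritic cell markers. For the macrophage markers they went from 2954 to 3100.3 CPM to 4198 to 4265 CPM. Abundant markers weigh most in these sums. The median log2 fold change was -0.34 for the tested dendritic cell markers and -0.28 for the macrophage markers. Adgre1, Csf1r and Cd14 were the macrophage markers called higher, and Mrc1 was called lower. The part of the cell type markers in the results was not tested. In such bulk samples fewer cells of a type and less RNA per cell cannot be told apart. The labels do not tie replicates to separate cultures or mice, so the p-values reflect library-to-library spread, which may be technical.

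The question was how transcripts of this regulatory circuit differed between cells given IFN-γ and 4-OI and cells given IFN-γ alone. All 10 regulator genes were higher with 4-OI by edgeR's quasi-likelihood test at a Benjamini-Hochberg adjusted p of 0.05, where 22.7% of all tested genes were called higher and 25.4% lower. When total counts alone set the scale, 6 of 10 were called higher and Keap1 turned to a log2 fold change of -0.02. That scale called 1719 of all 14011 tested genes higher and 5452 lower. In all 10 the lowest 4-OI library lay above the highest IFN-γ library, which held for 28.9% of tested genes. The set was chosen with earlier results of these data known, so these shares are background and no test of the set. The log2 fold changes ran from 0.23 for Keap1 to 2.44 for Sqstm1, with a median of 0.75 against -0.01 over all genes tested. Sqstm1, Mafg and Maff rose at least 2-fold, and the remaining 7 lay between 1.18-fold and 1.77-fold. The 6 genes called under each of the 15 alternative settings were Nfe2l2, Sqstm1, Bach1, Maff, Mafg and Mafk. Under total-count scaling the median over all tested genes was -0.27 on the log2 scale, so every change below is relative to the bulk of the tested genes.

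**Figure D1:**
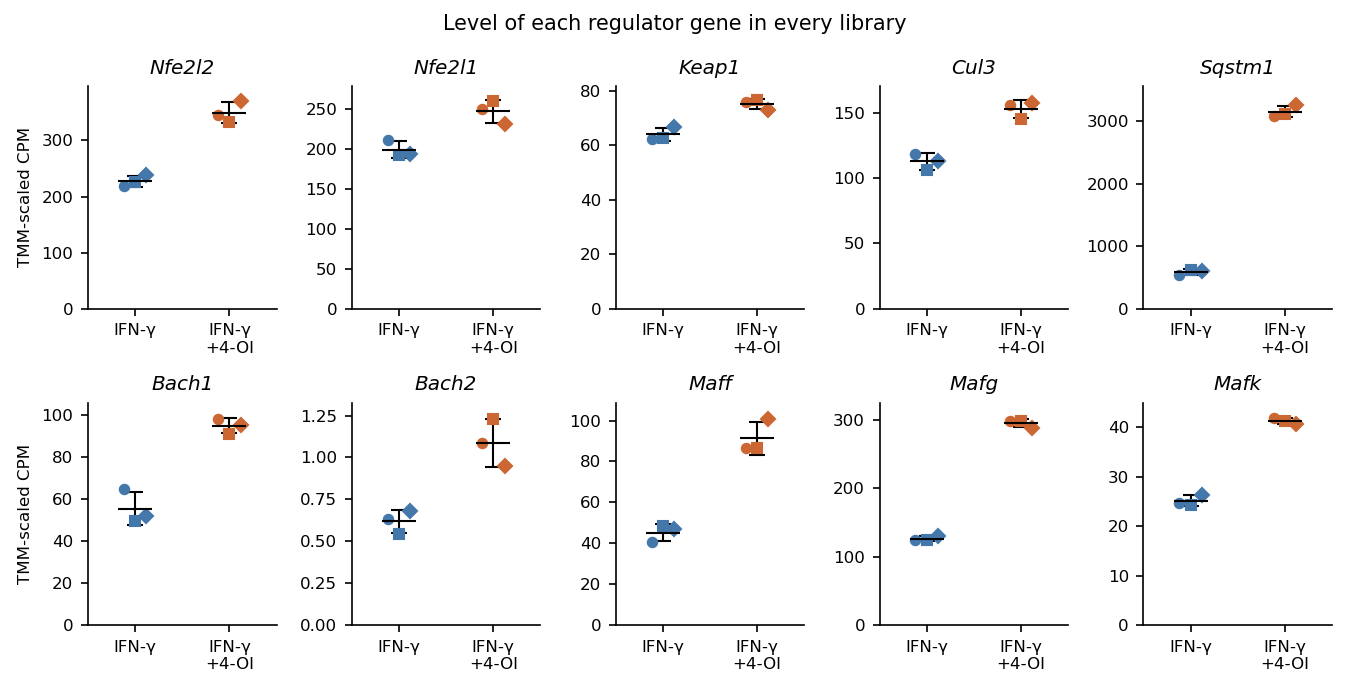
TMM-scaled CPM (vertical axes, each from 0) of the 10 regulator genes in the 3 IFN-γ and the 3 IFN-γ+4-OI libraries. Circles, squares and diamonds are replicates 1, 2 and 3, and bars are mean ± SD. In each panel the 4-OI libraries sit above the IFN-γ libraries, with the widest separation for Sqstm1 and a narrow one for Keap1.

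Nfe2l2, the gene of NRF2 itself, lies on chromosome 2 at 75505857 to 75535007 on the minus strand in the deposited tables. Its level was 218, 227 and 238 CPM in the 3 IFN-γ libraries and 346, 333 and 371 CPM in the 3 with 4-OI. The groups were separated by 95.7 CPM, several times the SD within either group (9.87 and 19.1 CPM). Nfe2l2 was 1.54-fold higher (log2 fold change 0.62 ± 0.08, SE; edgeR adjusted p = 5.24e-04), a larger change than in 86.7% of tested genes. Under total-count scaling its log2 fold change was 0.36, still past the threshold.

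Nfe2l1 encodes a related factor that is anchored in the endoplasmic reticulum membrane and drives proteasome genes when the proteasome is overloaded. It lies on chromosome 11 at 96708239 to 96720810, minus strand. It was at 211, 192 and 194 CPM with IFN-γ and 250.2, 259.7 and 230.5 CPM with 4-OI. The gap between the groups, 19.9 CPM, was somewhat larger than the SD within either of them (10.3 and 14.9 CPM). The fitted difference was 1.24-fold (log2 fold change 0.31 ± 0.08, SE; edgeR adjusted p = 0.0164). That call was lost without IFN-γ replicate 2 or 3 and without 4-OI replicate 1 or 2 (edgeR adjusted p = 0.0501, 0.0590, 0.0616 and 0.0755), and with total-count scaling its log2 value was 0.06 (edgeR adjusted p = 0.687, where all alternatives spanned 4.08e-10 to 0.687). The ratio of Nfe2l2 to Nfe2l1 per kilobase of exon was 1.43, 1.63 and 1.69 with IFN-γ against 1.91, 1.77 and 2.22 with 4-OI. Kilobases here count all annotated exon bases of a gene. Ratios across genes therefore depend on which exons these cells use, which was not tested.

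Keap1, the gene of the substrate adaptor that captures NRF2, differed least. It lies on chromosome 9 at 21141026 to 21150628, minus strand. It was at 62.4, 62.8 and 66.7 CPM with IFN-γ and 75.8, 76.7 and 73.1 CPM with 4-OI, so the groups were 6.33 CPM apart. The fitted difference was 1.18-fold with a 95% interval of 1.04-fold to 1.33-fold (edgeR adjusted p = 0.0360). The call was lost without IFN-γ replicate 2 or 3 and without 4-OI replicate 1 or 2 (edgeR adjusted p = 0.101, 0.0649, 0.114 and 0.123), with upper quartile factors, without the filter and with the replicate block (edgeR adjusted p = 0.0536, 0.0969 and 0.0567, where all alternatives spanned 1.22e-04 to 0.845). The direction of Keap1 depended on the scaling, as its log2 value of -0.02 under total counts shows.

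Cul3 encodes the scaffold of the ligase that KEAP1 and many other adaptors use. It lies on chromosome 1 at 80242640 to 80318407, minus strand. Its level went from 119, 106 and 113 CPM to 156, 145 and 158 CPM. Every 4-OI library was at least 26.7 CPM above every IFN-γ library, and Cul3 was 1.36-fold higher (log2 fold change 0.44 ± 0.08, SE; edgeR adjusted p = 0.00268). The call was lost with total-count scaling, at 0.18 on the log2 scale (edgeR adjusted p = 0.130, the highest of its alternatives, which began at 1.07e-10). The ratio of Nfe2l2 to Keap1 transcripts per kilobase, which total-count and TMM scaling leave alike, was 4.09, 4.22 and 4.17 with IFN-γ against 5.34, 5.08 and 5.94 with 4-OI. The ratio of Cul3 to Keap1 overlapped between the groups, with means of 1.53 ± 0.104 and 1.76 ± 0.115.

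Sqstm1 changed most. It encodes p62, which carries ubiquitinated cargo to autophagosomes, binds KEAP1 through a motif resembling that of NRF2, and is itself known as an NRF2 target. The gene lies on chromosome 11 at 50090979 to 50105303, minus strand. Its level was 530.1, 612 and 605 CPM with IFN-γ and 3089, 3118 and 3259 CPM with 4-OI. The lowest 4-OI library exceeded the highest IFN-γ library by 2477 CPM, against SDs of 45.5 and 91.3 CPM. The rise was 5.42-fold with a 95% interval of 4.57-fold to 6.42-fold (edgeR adjusted p = 2.49e-06), and by log2 fold change it ranked 185 from the top among the 14011 tested genes. The ratio of Sqstm1 to Keap1 per kilobase was 7.16 ± 0.491 with IFN-γ and 33.0 ± 1.78 with 4-OI.

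Bach1, the gene of the heme-sensing repressor that competes for antioxidant response elements, rose as well. It lies on chromosome 16 at 87495842 to 87530234, plus strand. Its level was 64.6, 49.8 and 52.0 CPM with IFN-γ and 98.1, 91.1 and 95.4 CPM with 4-OI. IFN-γ replicate 1, the library that stood apart, was the highest of its group. Bach1 was 1.71-fold higher (log2 fold change 0.77 ± 0.11, SE; edgeR adjusted p = 8.33e-04). Without that library the value was 0.89. The ratio of Nfe2l2 to Bach1 per kilobase overlapped between the groups, its IFN-γ values being 5.87, 7.93 and 7.95 and its 4-OI values 6.14, 6.37 and 6.77.

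Bach2, the repressor best known from B and T cells, was close to the limit of detection. Its counts were 16, 16 and 16 with IFN-γ against 20, 34 and 23 with 4-OI, or 0.618 ± 0.0692 and 1.09 ± 0.142 CPM, where 3 counts correspond to 0.103 to 0.153 CPM. The groups did not overlap, and the fitted difference was 1.77-fold with a wide 95% interval of 1.21-fold to 2.57-fold (edgeR adjusted p = 0.0212). The call was lost with DESeq2, with total-count scaling, without IFN-γ replicate 2 and without 4-OI replicate 1 or 2 (adjusted p = 0.0813 with DESeq2 and 0.0966, 0.0764, 0.0596 and 0.0902 with edgeR, the lowest of all alternatives being 0.0115). Summed B cell markers were 9.85 to 10.7 CPM with IFN-γ and 7.95 to 9.16 CPM with 4-OI, and summed T and NK cell markers were 8.27 to 12.4 and 4.81 to 6.26 CPM. The 6 B cell markers did not pass edgeR's test (0 had an unadjusted p under 0.05). Of 6 T and NK cell markers 2 were tested and both were lower (Cd3d and Cd3g), beside 25.4% of all tested genes. Cd3g made up most of their sum, at 8.16 ± 1.41 CPM with IFN-γ and 4.11 ± 0.480 CPM with 4-OI. Cd3e, Nkg7, Klrb1c and Ncr1 had too few counts to be tested. The part of these markers in the result was not tested. Bach2 lies on chromosome 4 at 32238413 to 32586109, plus strand, and shares 0.875% of its exon bases with Bach2os on the opposite strand, which had 0 to 2 counts.

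The small MAF proteins lack an activation domain and serve as obligate DNA-binding partners of NRF2, NFE2L1 and the BACH repressors. All of their genes rose. Mafg, on chromosome 11 at 120515943 to 120525771 on the minus strand, was at 124, 124 and 130.0 CPM with IFN-γ and 299, 298 and 289 CPM with 4-OI. It was 2.34-fold higher (log2 fold change 1.23 ± 0.07, SE; edgeR adjusted p = 9.40e-06), with CVs of 2.72% and 1.92% within the groups. Mafg shares 8.10% of its exon bases with Gm17586 on the opposite strand, which had 2 to 5 counts per library.

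Maff, which is known to respond to inflammatory and stress signals, lies on chromosome 15 at 79230821 to 79243278, plus strand. It was at 40.6, 48.3 and 46.8 CPM with IFN-γ and 86.4, 86.6 and 101 CPM with 4-OI, where replicate 3 stood above the other two. It was 2.02-fold higher (log2 fold change 1.01 ± 0.11, SE; edgeR adjusted p = 1.47e-04). Mafk lies on chromosome 5 at 139777291 to 139788409, plus strand, and went from 24.6, 24.4 and 26.4 CPM to 42.0, 41.3 and 40.8 CPM. It was 1.65-fold higher (log2 fold change 0.72 ± 0.08, SE; edgeR adjusted p = 1.87e-04).

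**Figure D2:**
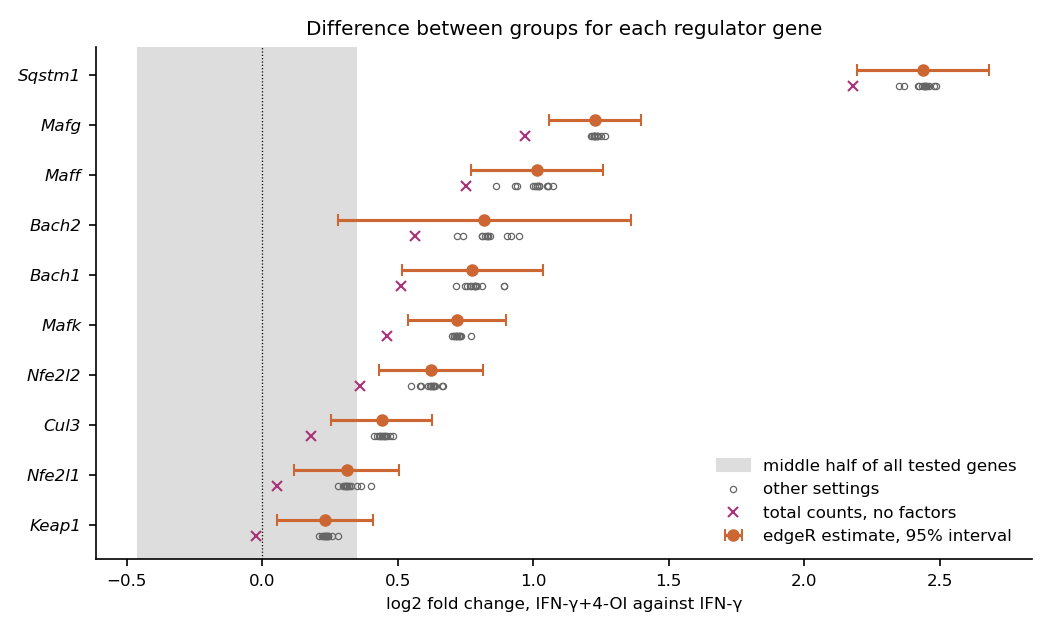
Log2 fold change of each regulator gene between IFN-γ+4-OI and IFN-γ libraries (horizontal axis), with the edgeR estimate and its 95% interval, the alternative settings as open circles and total-count scaling as crosses. The grey band is the interquartile range of all tested genes, -0.46 to 0.35. Of the 10 estimates, 8 lie above the band, and Nfe2l1 and Keap1 lie inside it.

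Summed per kilobase of exon, small MAF transcripts were at 28.5, 30.8 and 31.2 CPM per kilobase with IFN-γ against 63.3, 63.3 and 66.4 with 4-OI. Maff and Mafg made up most of them in similar shares. Mafg accounted for 45.6% ± 1.88 with IFN-γ and 50.03% ± 2.33 with 4-OI, Maff for 45.6% ± 2.24 and 43.1% ± 2.60, and both shares overlapped between the groups. The share of Mafk was 9.19%, 8.44% and 9.01% with IFN-γ against 7.07%, 6.96% and 6.54% with 4-OI, without overlap. The ratio of summed small MAF to Nfe2l2 per kilobase was 0.507 ± 0.010 with IFN-γ and 0.703 ± 0.0207 with 4-OI, without overlap between the libraries. For each Bach1 transcript there were 2.94, 4.11 and 3.99 small MAF transcripts with IFN-γ and 4.29, 4.61 and 4.63 with 4-OI, with IFN-γ replicate 1 far below the rest.

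**Figure D3:**
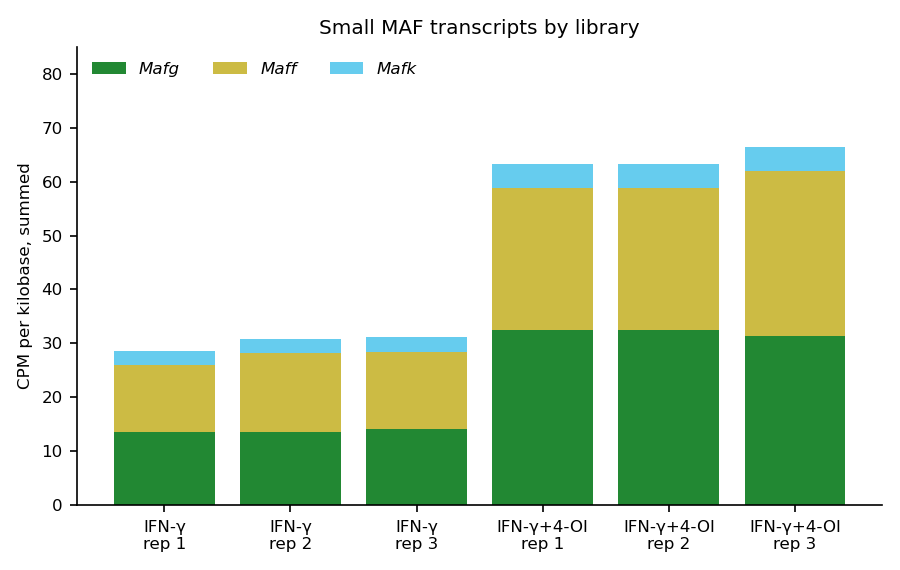
Stacked CPM per kilobase of exon of Mafg, Maff and Mafk (vertical axis, from 0) in each of the 6 libraries. The totals are 28.5 to 31.2 with IFN-γ and 63.3 to 66.4 with 4-OI, and Mafk is the thinnest layer in every library.

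The order of the levels changed with 4-OI at its middle. With IFN-γ the levels per kilobase fell from Sqstm1 (102 ± 8.01 CPM per kilobase) through Nfe2l2 (59.6 ± 2.58), Nfe2l1 (37.7 ± 1.95), Cul3 (21.8 ± 1.22), Keap1 (14.3 ± 0.534), Maff (13.8 ± 1.25), Mafg (13.7 ± 0.373), Bach1 (8.34 ± 1.20) and Mafk (2.68 ± 0.118) to Bach2 (0.0107 ± 0.00120). Keap1, Maff and Mafg were neighbours whose libraries overlapped, and the other neighbours did not overlap. With 4-OI, Mafg (32.2 ± 0.619) stood above Cul3 (29.6 ± 1.29) and Maff (27.8 ± 2.48), and Keap1 (16.8 ± 0.426) came next, above Bach1 (14.3 ± 0.529). There only Cul3 and Maff were neighbours with overlapping libraries. This order and the small MAF shares rest on all annotated exon bases of each gene, and which of these are transcribed here was not tested. The deposited length of Bach2, 57622 bases of exon, lowers its level per kilobase if most of those bases are not transcribed here, which was not tested.

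**Figure D4:**
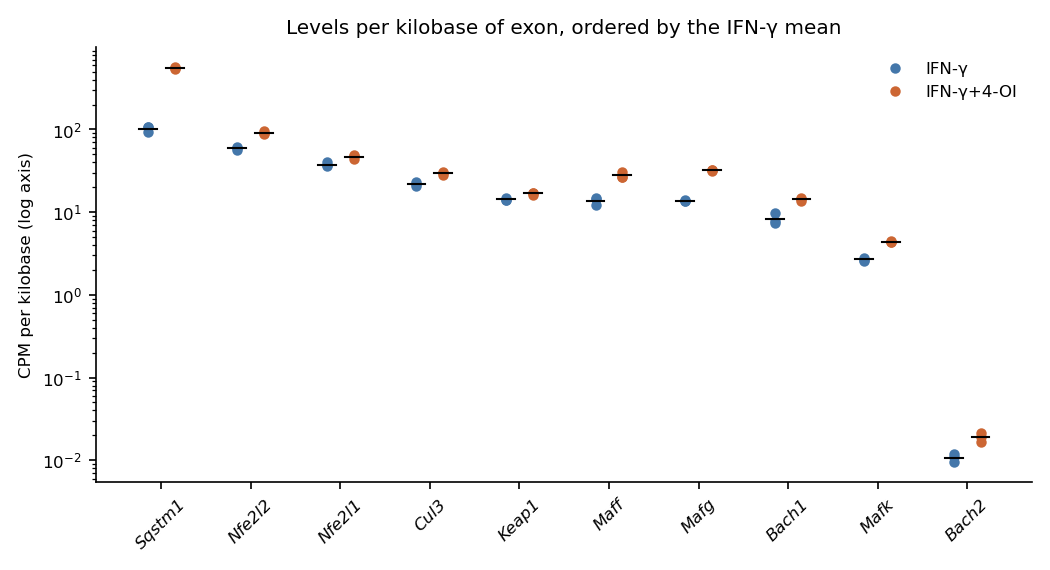
CPM per kilobase of exon (vertical log axis) of the 10 regulator genes, ordered by their IFN-γ mean, with 3 libraries per group as points and means as lines. Mafg and Maff move above Keap1 with 4-OI, while Sqstm1 stays highest and Bach2 lowest.

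The regions before the start sites of the genes that rose were searched for TGACNNNGC, the core of the antioxidant response element, on both strands. Its first bases overlap the AP-1 site TGACTCA. RefSeq windows of 250 bases before to 50 bases after the start (GRCm38.p6) were found for all 10 genes, 16 windows in all. Their positions are not to be compared with the deposited ones given above. For Nfe2l2 the deposited gene ends at 75535007, while the printed window begins at 75704664. A match was present for 4 of 10 genes, against 14.0% of the 27025 genes of the table with a match in any window. Counted by window, 4 of 16 held a match, against 12.4% of all windows of the table. The 4 genes were Nfe2l2 and the small MAF genes. They are printed here because they hold the match, as the 250 bases before the start, 5′ to 3′ on the gene's strand, with the match in capitals.
Nfe2l2, chr2:75704664-75704913, minus strand: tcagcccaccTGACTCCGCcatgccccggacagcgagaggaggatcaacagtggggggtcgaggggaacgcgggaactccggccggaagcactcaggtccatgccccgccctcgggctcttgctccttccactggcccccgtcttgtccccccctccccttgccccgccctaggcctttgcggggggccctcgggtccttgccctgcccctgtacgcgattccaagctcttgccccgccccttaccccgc
Maff, chr15:79346371-79346620, plus strand: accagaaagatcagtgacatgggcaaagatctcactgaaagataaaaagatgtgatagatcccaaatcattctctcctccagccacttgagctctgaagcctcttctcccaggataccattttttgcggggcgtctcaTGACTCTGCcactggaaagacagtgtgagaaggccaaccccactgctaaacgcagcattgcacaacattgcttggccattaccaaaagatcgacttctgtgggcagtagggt
Mafg, chr11:120633548-120633797, minus strand: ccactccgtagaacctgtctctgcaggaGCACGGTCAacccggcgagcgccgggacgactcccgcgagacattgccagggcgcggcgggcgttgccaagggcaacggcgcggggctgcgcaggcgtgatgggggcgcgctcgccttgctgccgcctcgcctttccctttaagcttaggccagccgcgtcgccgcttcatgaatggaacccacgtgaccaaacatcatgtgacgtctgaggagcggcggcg
Mafk, chr5:139791286-139791535, plus strand: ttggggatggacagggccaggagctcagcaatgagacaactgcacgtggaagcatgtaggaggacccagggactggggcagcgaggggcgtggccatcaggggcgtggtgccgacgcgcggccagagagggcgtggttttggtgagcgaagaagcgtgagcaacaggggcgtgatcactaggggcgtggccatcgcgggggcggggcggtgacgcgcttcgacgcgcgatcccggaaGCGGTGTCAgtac
The matches of Nfe2l2 and Maff read on the gene's strand and began 240 and 112 bases before the start. Those of Mafg and Mafk read on the opposite strand, as TGACCGTGC and TGACACCGC. As printed, on the gene's strand, their matches began 222 and 13 bases before the start. Maff has 3 start sites in the table, and the match lay in the window of the most upstream of them. A match is a description of the letters and says nothing of binding, and no match was present in these windows for Sqstm1, Bach1, Bach2, Cul3, Keap1 and Nfe2l1. Of 24 listed NRF2 and BACH1 targets, 18 were in the table and 7 of those had a match.

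The listed targets of NRF2 and BACH1, a group known from earlier results of these data to be higher, cover heme breakdown, glutathione synthesis and NADPH supply. All 24 rose, beside 22.7% of all tested genes, and their median on the log2 scale was 1.97 against -0.01 over all tested genes. With total-count scaling 22 of 24 rose, beside 1719 of all 14011 tested genes. As the group was known to be higher, these counts are no test of it. Slc40a1, the iron exporter ferroportin, went from 7.44 ± 0.461 to 125 ± 4.96 CPM (16.8-fold, edgeR adjusted p = 1.55e-06). Gclc, of glutathione synthesis, rose 12.8-fold and Srxn1, sulfiredoxin, 15.7-fold. The smallest of the 24 changes was a log2 fold change of 0.29, for Osgin1, named after its value was seen. The targets' median thus exceeded the log2 fold change of each regulator gene except Sqstm1.

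Around p62, 8 of 17 tested genes of autophagy receptors and p62 partners rose and 3 fell, with a median of 0.27, beside 22.7% and 25.4% of all tested genes. Gabarapl1, a protein of the autophagosome membrane, rose from 179 ± 20.7 to 598 ± 43.7 CPM (3.33-fold, edgeR adjusted p = 1.46e-05). The receptor genes Calcoco1 and Nbr1, the latter a structural relative of p62, rose 1.81-fold and 1.66-fold. Tax1bp1, Sesn2 and Mtor were the 3 that fell, chosen for naming after their values were seen. With total-count scaling 6 rose and 5 fell, beside 1719 and 5452 of all 14011 tested genes. Without 4-OI replicate 1 or without 4-OI replicate 2 only 1 fell, beside 2957 of 14483 and 2815 of 14108 tested genes.

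Of 11 genes that extract, cut or modify NFE2L1, 5 rose, with a median of 0.20, beside 22.7% of all tested genes. With total-count scaling 4 rose, beside 1719 of all 14011 tested genes. None fell in the main edgeR fit, with DESeq2 or with limma-voom, where the main fit called 25.4% of all tested genes lower. In the main fit 0 had an unadjusted p under 0.05 as lower. With the replicate block, also an edgeR fit, 1 fell, beside 3925 of 14011 tested genes. Vcp, the segregase that pulls NFE2L1 out of the membrane, went from 244 ± 4.89 to 526 ± 27.6 CPM (2.15-fold, edgeR adjusted p = 2.51e-05), and its cofactor gene Ufd1 rose 2.05-fold. Ogt, which encodes the enzyme that attaches N-acetylglucosamine to nuclear and cytosolic proteins, rose 2.02-fold. Ddi2, the protease gene of this list, did not pass (log2 fold change -0.60, edgeR adjusted p = 0.170), and Ngly1, the deglycosylase gene, did not either (0.16, edgeR adjusted p = 0.249). These last 2 were named after their values were seen.

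Of 16 partners of cullin ligases and of KEAP1, 8 were higher and 3 lower, with a median of 0.23, beside 22.7% and 25.4% of all tested genes. Under total-count scaling 4 were higher and 4 lower, beside 1719 and 5452 of all 14011 tested genes. With both IFN-γ replicate 1 and 4-OI replicate 3 left out, 8 were higher and 6 lower, beside 4601 and 4695 of 14086 tested genes. Without IFN-γ replicate 3, 5 were higher, beside 2656 of 14364 tested genes. Without 4-OI replicate 2 or 3, 4 were higher, beside 2460 of 14108 and 2633 of 14104 tested genes. Klhl12 and Klhl9, adaptors that use the same scaffold CUL3, rose 2.39-fold and 1.58-fold. Palb2, whose product binds KEAP1 and acts in DNA repair, fell 2.31-fold. Rbx1, the RING subunit of the ligase, differed by 0.13 on the log2 scale (edgeR adjusted p = 0.564) and was named after its value was seen.

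Of 11 genes in routes of NRF2 turnover apart from KEAP1, 2 were higher and 1 lower, with a median of 0.02, beside 22.7% and 25.4% of all tested genes. Cul1 and Skp1, scaffold and linker of another cullin ligase, rose 1.54-fold and 1.55-fold, and Trim21, an interferon-induced gene whose product ubiquitinates p62, fell 1.43-fold. With both IFN-γ replicate 1 and 4-OI replicate 3 left out, 5 were higher and 1 lower, beside 4601 and 4695 of 14086 tested genes. With total-count scaling 2 were higher and 3 lower, beside 1719 and 5452 of all 14011 tested genes. The receptor and kinase genes of this route, Btrc, Fbxw11, Gsk3a and Gsk3b, named after their values were seen, had log2 fold changes of -0.17, -0.15, -0.03 and -0.16 and did not pass (edgeR adjusted p = 0.191, 0.160, 0.858 and 0.465).

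Of 10 genes of NRF2 cofactors, activating or repressing, 1 was higher and 3 were lower, with a median of -0.14, beside 22.7% and 25.4% of all tested genes and their median of -0.01. With total-count scaling 5 were lower, beside 5452 of all 14011 tested genes. With both IFN-γ replicate 1 and 4-OI replicate 3 left out, 4 were higher and 3 lower, beside 4601 and 4695 of 14086 tested genes. Without IFN-γ replicate 1 alone 2 were higher, beside 3791 of 14335 tested genes. Without 4-OI replicate 2 or 3 only 1 was lower, beside 2815 of 14108 and 2985 of 14104 tested genes. Rara, the gene of a retinoic acid receptor known to bind and repress NRF2, fell 1.86-fold and Chd6, a chromatin remodeler gene, 1.69-fold, the latter with a wide spread of 34.3 ± 11.5 CPM with IFN-γ. The Chd6 call was lost without 4-OI replicate 2 or 3 (edgeR adjusted p = 0.0687 and 0.0970), and its log2 fold change went from -0.76 to -0.46 without IFN-γ replicate 1. Kat8, an acetyltransferase gene, rose 1.75-fold.

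Nfe2, a CNC factor gene outside the set that is known from the erythroid, megakaryocyte and mast cell lineages, fell from 28.3 ± 2.95 to 18.1 ± 1.85 CPM (1.56-fold, edgeR adjusted p = 0.00241). Markers of mast cells and basophils fell beside Nfe2, from a summed 341 to 371 CPM with IFN-γ to 103 to 111 CPM with 4-OI. Their part in the fall of Nfe2 was not tested.

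**Figure D5:**
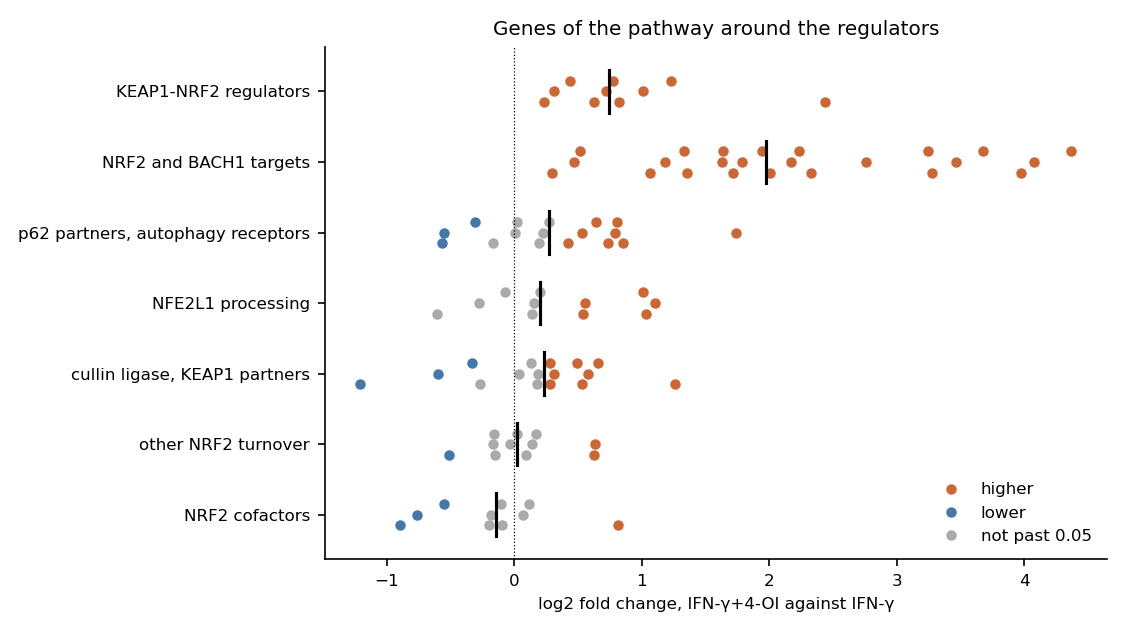
Log2 fold changes between IFN-γ+4-OI and IFN-γ (horizontal axis) of the tested genes in the regulator set and the lists around it. Colours mark genes called higher, lower or not past an adjusted p of 0.05, and vertical lines are medians. All points of the regulators and of the NRF2 and BACH1 targets lie above 0, and the median of the NRF2 cofactors lies below it.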

How the data were processed

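The members and gene lists were chosen with earlier results of these data known. The authors deposited 1 table per library with whole-number counts per gene, per the file headers, beside TPM and FPKM. Recomputation from counts and exon lengths gave the deposited TPM and FPKM in 100% of cases (relative tolerance 1e-06), so only counts were tested. HISAT2 and mm10 are named in the submitters' processing notes. How reads were counted, with or without strand, and on which annotation is not given in the sources used here. Gene positions are those of the deposited tables. Only 1 of 10 members shared a start or end with the RefSeq table of GRCm38, so the assembly of these positions appears to differ from mm10.

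Counts were fitted with edgeR 4.0.16 in R 4.3.3, using filterByExpr (minimum count 10), TMM factors, the robust quasi-likelihood test and Benjamini-Hochberg adjustment over 14011 genes. At these depths 3 counts correspond to 0.103 to 0.153 CPM, which covers counting error only. No pair of replicates agreed within sampling noise (lowest chi-square per gene 4.29). Alternatives were RLE, upper quartile and no factors, no filter, at least 1 CPM in 3 libraries, DESeq2 1.42.0, limma-voom (limma 3.58.1), the replicate block, leaving out each library, leaving out both IFN-γ replicate 1 and 4-OI replicate 3, and an adjusted p of 0.01. Their use on the pathway lists was added after the data were seen. Genes named are the 10 members and, of each list, the 3 with the smallest adjusted p among those past 0.05, with 1 list gene not reported here. Cell type markers and the genes said in the text to be named after their values were seen fall outside that rule. No protein sequence table was used here.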

Additional observations from a re-analysis of the deposited data

How the results depend on the processing

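All 10 regulator genes kept their direction under every alternative that tested them, except Keap1, which stood at -0.024 on the log2 scale under total-count scaling. That scaling left 6 regulator genes changed, all 6 higher, and called 1719 of all tested genes higher and 5452 lower, so that 24.0% of calls were higher against 47.2% with TMM. It leaves out the factors for composition, which moved the median of all tested genes. At an adjusted p of 0.01, 2079 genes were higher, and 7 regulator genes were still called. Leaving out single libraries gave 7 to 10 regulator genes higher and 5275 to 7835 genes changed. Replicate numbers are shared between groups, and libraries of the same number deviated together with correlations of 0.26, -0.10 and 0.19. No such value was computed for libraries of unlike number, so these cannot show whether the numbers pair libraries. The main fit did not pair them. With the replicate block 9 regulator genes were higher and 7513 genes changed, against 10 and 6736 in the main fit. Depth limits Bach2 alone among the 10, at 16 to 34 counts per library.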
